A study of Mus musculus with 8 samples.

Results

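The genes described here run hepatic nitrogen disposal and amino acid breakdown: the urea cycle, glutamine and glutamate exchange, the one-carbon and methionine routes, glycine and serine cleavage, degradation of the aromatic, histidine, branched chain and lysine carbon skeletons, and the carriers that bring amino acids into the hepatocyte. They were chosen by name, 48 genes in all, with earlier results of these data known. A gene was taken as measured where a probe set of the array was annotated with that gene alone, and where several were, the brightest on average over the 8 arrays was taken. By this rule 43 of the 48 were measured, of 19938 genes on the array. Ass1 (argininosuccinate synthase) and Ahcy (adenosylhomocysteinase) were found only on probe sets that the annotation also assigns to a second gene, and Gls2, Sds and Sdsl were not analysed here.

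Liver RNA came from 8 female C57B1/6J mice, the strain as spelled in the labels, which had their ovaries removed (OVX) at 7 weeks of age. All 8 mice, controls included, ate a high fat diet (HFD), given from 1 week after surgery for 3 months. In 4 of them the diet also held white button mushroom (HFD+WBM). By the study's diet composition, casein, cellulose, corn oil and lard were unchanged and corn starch was lower. The mushroom powder brought carbohydrate, protein, fiber and fat of its own. Supply of protein, starch, fiber and fat therefore differed together with the mushroom, and these cannot be told apart here. The study gave control mice the same weight of food as mushroom-fed mice ate. Each liver was hybridized to its own Mouse Gene 1.0 ST array of Affymetrix, which reads 1 colour with probes set along the exons of a transcript. Values are log2 signals as deposited, so that a difference of 1 is a doubling. Removal of the ovaries leaves the small amounts of estrogen made in other tissues, as after menopause. No array of a sham-operated mouse was used here, so the comparison is that of the mushroom within OVX and HFD. The comparison asks which transcripts of amino acid metabolism differ when WBM is added to the HFD.

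The liver is the main site where surplus amino nitrogen is turned into urea. Periportal hepatocytes carry the urea cycle and much of amino acid breakdown, whereas a thin rim of pericentral hepatocytes captures the ammonia that escapes as glutamine. The carbon skeletons that remain feed glucose, ketone body and one-carbon metabolism, and many of these enzymes respond to glucagon, glucocorticoids, insulin and the supply of protein.

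The tissue was liver by its markers. The 8 measured hepatocyte markers had a mean level of 13.37 to 13.50 in the HFD mice and 13.41 to 13.53 in the HFD+WBM mice, and none passed the test. Genes of other liver cells did move with the diet, where 6.9% of all genes were called lower. Of 14 measured markers of Kupffer cells and macrophages, 13 were lower with WBM (median log2 difference -0.71, and 11 to 14 lower when each mouse was left out), and the mean level of the list was 9.02 to 9.77 with HFD and 8.56 to 9.03 with HFD+WBM. Of 10 stellate cell and matrix markers 4 were lower, with a mean level of 8.52 to 9.16 under HFD and 8.20 to 8.63 under HFD+WBM, and 2 to 5 were lower when each mouse was left out (2 when this was replicate 3 or 4 of HFD, or 2 or 3 of HFD+WBM). Of 10 markers of the sinusoidal endothelium 3 were lower, with a mean level of 9.15 to 9.67 and 8.85 to 9.38, and 1 to 4 were lower when each mouse was left out (1 when it was replicate 3 or 4 of HFD, or 1 or 3 of HFD+WBM). None of 9 lymphocyte or 5 cholangiocyte markers passed. In whole tissue, fewer cells of a type and less RNA per cell cannot be told apart. The part of these shifts in the differences reported here was not tested. The array of HFD replicate 3 stood farthest from the others, with an SD over genes of 0.678 around the average array, where the rest had 0.384 to 0.499.

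Among the 43 members, 5 differed between the diets before adjustment for the number of genes. In limma's moderated test, 2 members were higher with WBM and 3 were lower at an unadjusted p under 0.05, while the other 38 missed that threshold. The higher ones were Slc38a2, a sodium-coupled neutral amino acid carrier, and Ivd, the isovaleryl-CoA dehydrogenase of leucine breakdown. The lower ones were Kynu, kynureninase of tryptophan breakdown, Gldc, the decarboxylating subunit of the glycine cleavage system, and Shmt1, the cytosolic serine hydroxymethyltransferase. Among all genes tested 4.85% were called higher and 6.9% lower, so that both member counts lie near the background share. No member reached the study's joint thresholds of p under 0.05 and 2-fold, which 0.762% of all genes passed. None passed an adjusted p of 0.05 over all genes, with 0.0% of all genes doing so. By this test the lowest adjusted p of a member was 0.368, beside 5 members under 0.05 before adjustment. The equal-variance t-test also gave 0 members past an adjusted p of 0.05, and limma with a prior variance set by signal level gave 2, Kynu and Slc38a2, where 0.697% of all genes passed.

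The 4 values of one diet all lay on one side of the 4 of the other in 4 members. Ivd was the one without overlap upward, where 3.21% of all genes were, and Kynu, Gldc and Shmt1 were the 3 downward, where 5.02% of all genes were. Over the 43 members the estimate was above 0 in 22 and below 0 in 21, with a median of 0.03 against 0.0065 over all genes. In 33 members the estimate was under 0.25 in size and in 40 it was under 0.5, on the log2 scale. These genes gave bright and steady signals. The mean signal of 41 of the 43 was above the 90th percentile of all genes, which is a statement on brightness and not on transcript number. The median standard error of a difference was 0.161 against 0.208 over all genes. All 43 were among the 50% brightest genes. The median within-diet SD was 0.185 in the members, 0.221 in the 50% brightest genes and 0.299 over all genes.

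**Figure D1:**
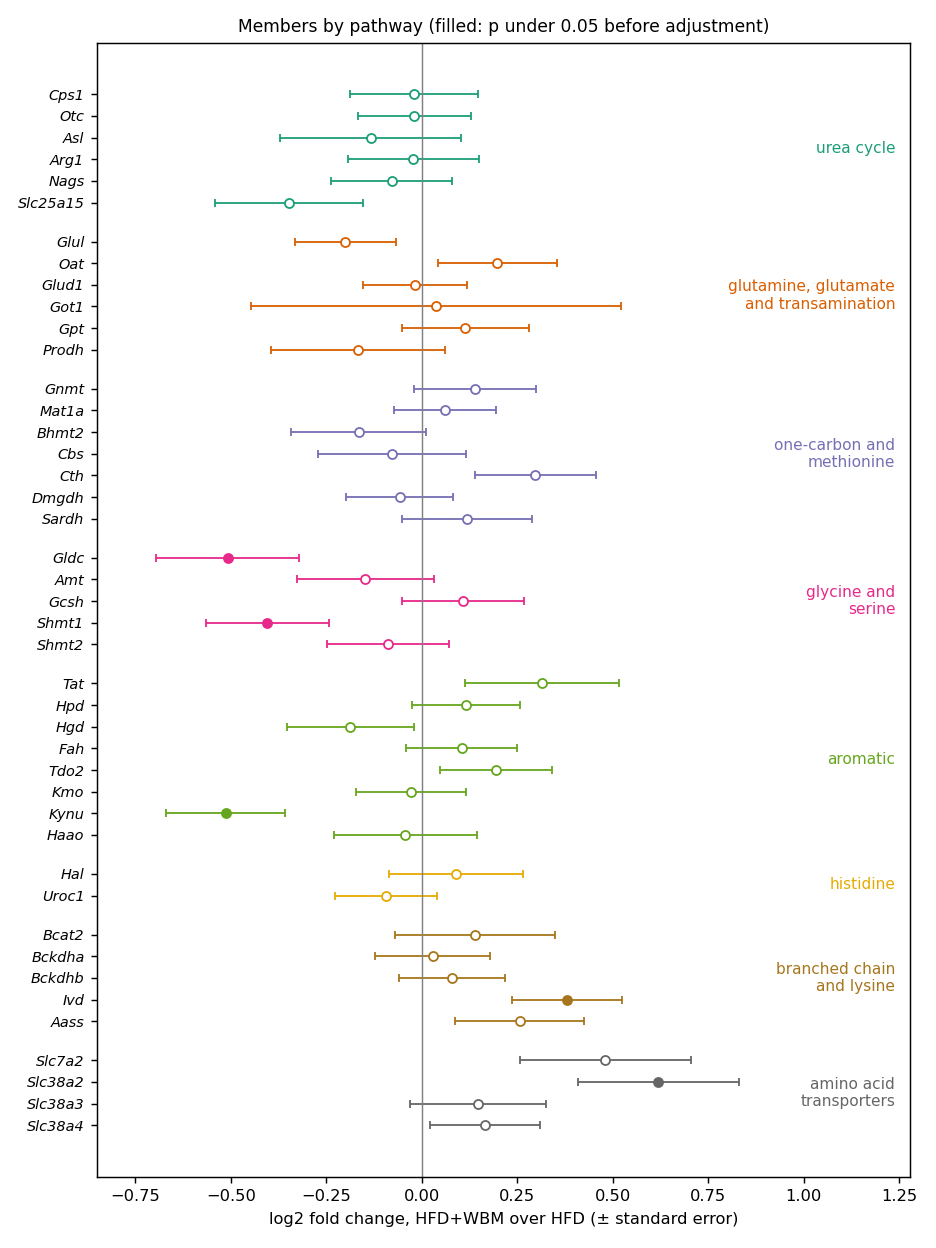
Log2 difference between HFD+WBM and HFD (horizontal axis) of each of the 43 measured members, grouped by pathway. Points are limma estimates, bars are 1 standard error, and filled points are those with an unadjusted p under 0.05 (Kynu, Gldc, Shmt1, Ivd and Slc38a2); the urea cycle members all have open points.

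Breakdown of glycine and serine held 2 of the 3 lower members. The glycine cleavage system of the mitochondrion splits glycine into carbon dioxide, ammonia and a folate-bound carbon, and serine hydroxymethyltransferases interconvert serine and glycine. Gldc had log2 values of 10.15, 10.35, 10.59 and 10.49 in the HFD mice and 10.09, 9.44, 10.01 and 10.00 in the HFD+WBM mice. All 4 mushroom-fed mice lay below all 4 controls, with HFD+WBM replicate 2 far the lowest and HFD+WBM replicate 1 close to the lowest control. The difference was -0.51 (SE 0.19), or 1.42-fold lower with WBM (limma p = 0.023, adjusted p = 0.389, exact permutation p = 0.029, the smallest that 4 against 4 mice can give). The call was lost without HFD+WBM replicate 2 (-0.36), HFD replicate 3 (-0.44) or HFD replicate 4 (-0.48).

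The values of Shmt1 were 10.60, 10.77, 10.81 and 10.72 with HFD and 10.50, 9.96, 10.39 and 10.43 with HFD+WBM. The groups did not overlap, and HFD+WBM replicate 2 was again the lowest. The difference was -0.40 (SE 0.16), 1.32-fold lower with WBM (limma p = 0.032, adjusted p = 0.40, exact permutation p = 0.029). The call was lost under quantile normalization (-0.36) and with the replicate number as a block, and also without HFD replicate 2, 3 or 4 (-0.39, -0.37 and -0.41) or HFD+WBM replicate 2 (-0.28).

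The other 3 measured members of this route did not pass. Amt, the aminomethyltransferase that works with Gldc, differed by -0.15 (SE 0.18), with HFD+WBM replicate 2 at 9.68 and the other 7 mice between 10.16 and 10.40. Gcsh, the lipoyl carrier protein of the complex, differed by 0.11 (SE 0.16), and the mitochondrial Shmt2 by -0.09 (SE 0.16). Thus of the glycine cleavage proteins among the members, Gldc, Amt and Gcsh, 1 of 3 was called.

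Kynu cleaves kynurenine and hydroxykynurenine on the way from tryptophan to NAD. Its values were 11.30, 11.66, 11.73 and 11.47 with HFD and 11.17, 10.83, 11.11 and 11.00 with HFD+WBM. Every mushroom-fed mouse was below every control. The difference was -0.51 (SE 0.16), 1.43-fold lower with WBM (limma p = 0.0088, adjusted p = 0.368, exact permutation p = 0.029). It passed in all 16 alternative settings, and ranged from -0.59 to -0.45 among them (-0.45 without HFD replicate 3).

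Ivd catalyses an early mitochondrial step of leucine breakdown. Its values were 10.99, 11.14, 11.16 and 11.01 with HFD and 11.29, 11.33, 11.59 and 11.61 with HFD+WBM. The lowest mushroom-fed mouse lay above the highest control. The difference was 0.38 (SE 0.14), 1.30-fold higher with WBM (limma p = 0.025, adjusted p = 0.398, exact permutation p = 0.029). The call was lost with the replicate number as a block, without HFD replicate 1 or 4 (0.35 and 0.36) and without HFD+WBM replicate 3 or 4 (0.34 and 0.33), and it held without HFD replicate 3 (0.41).

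Slc38a2 (SNAT2) takes up glutamine, alanine and other small neutral amino acids, and its transcript is known to rise when cells lack amino acids. Its values were 11.14, 11.65, 10.70 and 11.32 with HFD and 11.92, 11.91, 11.56 and 11.90 with HFD+WBM. The groups overlapped by a single pair of mice, since HFD replicate 2 exceeded HFD+WBM replicate 3. The difference was 0.62 (SE 0.21), the highest estimate among the 43 members and 1.54-fold higher with WBM (limma p = 0.016, adjusted p = 0.378, exact permutation p = 0.057). It passed in all 16 alternatives, at 0.45 without HFD replicate 3, the lowest control and the array that stood apart, and at 0.77 without HFD replicate 2.

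**Figure D2:**
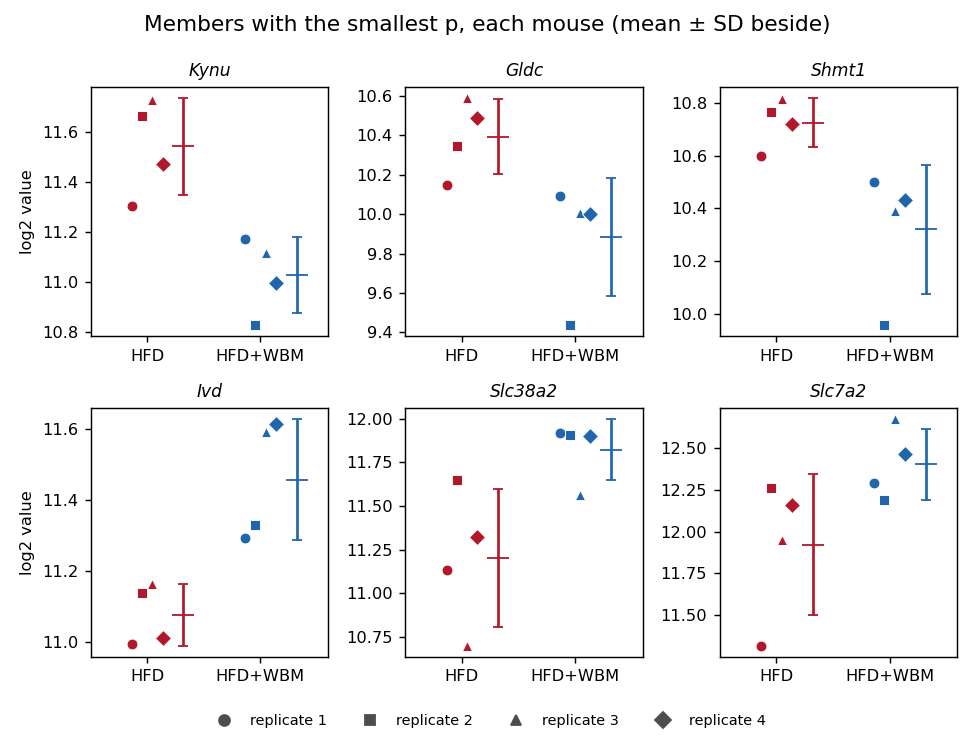
Log2 value (vertical axis, a separate scale in each panel) of Kynu, Gldc, Shmt1, Ivd, Slc38a2 and Slc7a2 in each of the 4 HFD (red) and 4 HFD+WBM (blue) mice, with marker shape for the replicate number and the group mean ± SD beside the points. The diets do not overlap in Kynu, Gldc, Shmt1 and Ivd, and overlap in Slc38a2 and Slc7a2.

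Of the 5 members that passed, 4 had a promoter window in the RefSeq table of GRCm38.p6, and these are shown because they lie at the members on which the comparison turns. Each window is the 250 bases before the annotated start, read 5′ to 3′ on the strand of the gene. Capitals mark matches, on either strand, to the letters of a CCAAT box (CCAAT), a CRE core (TGACG), an E-box (CACGTG) or a GC box (GGGCGG). Gldc lies at chr19:30175442-30175691 (minus strand), Shmt1 at chr11:60811266-60811515 (minus strand), Ivd at chr2:118861744-118861993 (plus strand) and Slc38a2 at chr15:96699729-96699978 (minus strand).
Gldc: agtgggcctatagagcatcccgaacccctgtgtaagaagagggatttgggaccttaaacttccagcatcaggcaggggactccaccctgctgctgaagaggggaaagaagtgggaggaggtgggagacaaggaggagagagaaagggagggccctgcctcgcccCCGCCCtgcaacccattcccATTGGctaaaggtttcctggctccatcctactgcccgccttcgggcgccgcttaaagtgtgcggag
Shmt1: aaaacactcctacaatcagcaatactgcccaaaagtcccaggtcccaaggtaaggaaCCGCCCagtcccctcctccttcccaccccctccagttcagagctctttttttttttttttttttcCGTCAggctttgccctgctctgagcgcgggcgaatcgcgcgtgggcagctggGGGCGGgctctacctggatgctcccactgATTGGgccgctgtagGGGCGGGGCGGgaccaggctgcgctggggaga
Ivd: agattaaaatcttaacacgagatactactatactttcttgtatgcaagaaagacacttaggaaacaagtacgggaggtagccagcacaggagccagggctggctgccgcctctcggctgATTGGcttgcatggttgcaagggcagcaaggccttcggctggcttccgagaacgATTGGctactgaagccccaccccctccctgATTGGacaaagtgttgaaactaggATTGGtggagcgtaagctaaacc
Slc38a2: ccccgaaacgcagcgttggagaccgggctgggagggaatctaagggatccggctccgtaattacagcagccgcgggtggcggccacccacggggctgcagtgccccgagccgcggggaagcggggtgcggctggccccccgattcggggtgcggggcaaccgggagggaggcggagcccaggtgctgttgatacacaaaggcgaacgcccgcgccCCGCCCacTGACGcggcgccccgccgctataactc
The Ivd window held 4 CCAAT matches and none of the other motifs. Shmt1 held 4 GC box matches, 2 of which share bases, 1 CCAAT and 1 CRE core, Gldc held 1 CCAAT and 1 GC box, and Slc38a2 held 1 CRE core and 1 GC box in a window of 72.0% GC. None of the 4 held an E-box. A CCAAT box was present in 33.8% of all 32851 windows of this length and in 19 of the 36 members with a window (52.8%). The GC box was present in 32.7% of all windows and in 18 members (50%), the CRE core in 17.8% and 3 members (8.33%), and the E-box in 6.02% and 2 members (5.56%). The share of all windows counts every listed window, whereas that of the members counts the first listed window of each member. These shares have unlike bases, and no difference between them was tested. The matches are descriptions of letters, and no measurement of binding was made.

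The urea cycle showed no called member among the 6 of 7 measured, with a median of -0.05. Its steps are formation of carbamoyl phosphate by Cps1, its joining to ornithine by Otc, the condensation with aspartate by Ass1, the release of fumarate by Asl and that of urea by Arg1. Cps1 had values of 13.26, 13.83, 13.64 and 13.50 with HFD and 13.72, 13.33, 13.60 and 13.50 with HFD+WBM. The mushroom-fed mice lay inside the range of the controls. The difference was -0.02 (SE 0.17, 95% interval -0.40 to 0.36, limma p = 0.908, adjusted p = 0.97, exact permutation p = 0.914).

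Otc was at 11.83, 11.90, 12.14 and 11.75 with HFD and at 11.76, 11.80, 11.94 and 12.04 with HFD+WBM, a difference of -0.02 (SE 0.15, interval -0.35 to 0.31, limma p = 0.899, adjusted p = 0.97, exact permutation p = 0.886). Arg1 was at 12.05, 12.57, 12.45 and 12.34 with HFD and at 12.56, 12.05, 12.38 and 12.33 with HFD+WBM, also a difference of -0.02 (SE 0.17, interval -0.41 to 0.37, limma p = 0.903, adjusted p = 0.97, exact permutation p = 0.83). In both genes the groups overlapped over most of their range. Asl was at 11.34, 12.43, 12.07 and 12.11 with HFD and at 11.95, 11.55, 12.06 and 11.86 with HFD+WBM. The spread among controls was wide, with HFD replicate 1 the lowest of all 8 mice, and the difference was -0.13 (SE 0.24, interval -0.67 to 0.40, limma p = 0.587, adjusted p = 0.84, exact permutation p = 0.629). It was -0.35 without HFD replicate 1 and 0.01 without HFD replicate 2. For Cps1, Otc and Arg1 the intervals leave room for differences of up to about 0.4 on the log2 scale in either direction, and for Asl of up to 0.67 downward.

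Nags, which makes the N-acetylglutamate that activates Cps1, differed by -0.08 (SE 0.16). Slc25a15, the mitochondrial ornithine carrier of the cycle, had the lowest estimate of the pathway, at -0.35 (SE 0.19, limma p = 0.104, exact permutation p = 0.143). Its values were 10.99, 11.77, 11.34 and 11.41 with HFD and 11.19, 10.74, 11.15 and 11.02 with HFD+WBM, and HFD replicate 1 alone overlapped the mushroom-fed mice. Without that mouse the difference was -0.48 and was called, and without HFD replicate 2, the highest control, it was -0.22. With all 8 mice Slc25a15 was also called when the prior variance was set by signal level. All 6 estimates of the cycle were below 0, 3 of them at -0.02.

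**Figure D3:**
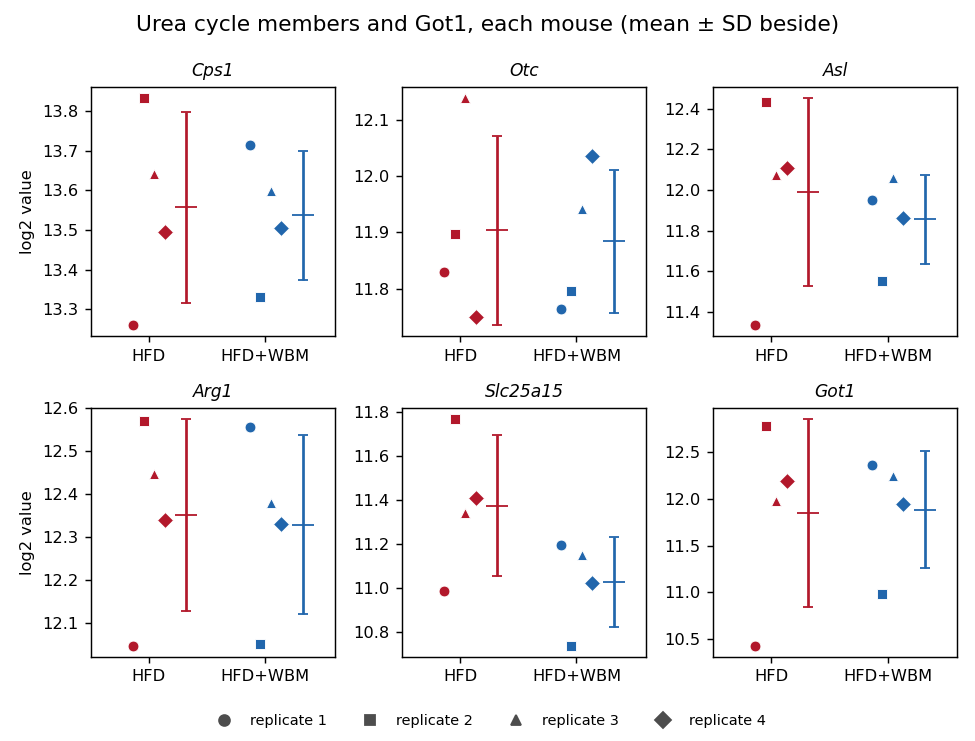
Log2 value (vertical axis, a separate scale in each panel) of Cps1, Otc, Asl, Arg1, Slc25a15 and Got1 in each of the 4 HFD (red) and 4 HFD+WBM (blue) mice, with marker shape for the replicate number and mean ± SD beside. The diets overlap in all 6 genes, and HFD replicate 1 and HFD+WBM replicate 2 are the low points of Got1.

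Glutamine and glutamate metabolism also held no called member among 6 measured. Glul, the glutamine synthetase of pericentral hepatocytes, was at 12.76, 12.76, 12.67 and 12.87 with HFD and at 12.54, 12.70, 12.54 and 12.48 with HFD+WBM. Only HFD+WBM replicate 2 reached above the lowest control. The difference was -0.20 (SE 0.13, interval -0.50 to 0.10, limma p = 0.162, adjusted p = 0.55, exact permutation p = 0.057), and a second probe set of Glul gave -0.18. The equal-variance t-test, which uses the spread of Glul alone (SD 0.084 and 0.092), called it before adjustment.

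Oat, the ornithine aminotransferase that shares the pericentral zone, was at 12.67, 12.58, 12.53 and 12.45 with HFD and at 12.71, 12.47, 12.86 and 12.98 with HFD+WBM. Its estimate had the opposite sign to that of Glul, 0.20 (SE 0.16, interval -0.15 to 0.55, limma p = 0.232, adjusted p = 0.61, exact permutation p = 0.171). Glud1, the glutamate dehydrogenase that frees ammonia, differed by -0.02 (SE 0.14), Gpt, the alanine aminotransferase, by 0.11 (SE 0.17), and Prodh, which opens proline breakdown, by -0.17 (SE 0.23).

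Got1, the cytosolic aspartate aminotransferase, varied among mice more than any other member, and its values are given for that reason, chosen after they were seen. They were 10.43, 12.78, 11.98 and 12.19 with HFD and 12.36, 10.98, 12.25 and 11.94 with HFD+WBM. One mouse of each diet lay far below the others. The within-diet SD was 0.835, the only one over 0.4 among the members, and the difference of 0.04 had an interval of -1.05 to 1.12, so that a doubling in either direction was within reach of the error.

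In the aromatic route Kynu was the 1 called member of 8. Tat, tyrosine aminotransferase, an enzyme long known for its induction by glucocorticoids, was at 12.95, 13.91, 13.33 and 13.46 with HFD and at 13.83, 13.66, 13.64 and 13.78 with HFD+WBM. The mushroom-fed mice lay close together inside the range of the controls. The difference was 0.31 (SE 0.20, interval -0.14 to 0.77, limma p = 0.152, adjusted p = 0.54, exact permutation p = 0.171), and without HFD replicate 2, the highest control, it was 0.48 and was called. Without HFD replicate 1, the lowest control, it was 0.16, and with all 8 mice Tat was called when the prior variance was set by signal level.

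Downstream of Tat, tyrosine is degraded by Hpd (0.12, SE 0.14), Hgd (-0.19, SE 0.17) and Fah, the enzyme lacking in hereditary tyrosinemia (0.10, SE 0.14). On the tryptophan side, Tdo2, the dioxygenase that opens the pathway, differed by 0.19 (SE 0.15), Kmo, which hydroxylates kynurenine, by -0.03 (SE 0.14), and Haao, which acts just after Kynu, by -0.04 (SE 0.19). Kynu therefore was the called step in a route whose neighbouring steps Kmo and Haao had estimates near 0. Whether Kynu differed from these neighbours was not tested. Histidine breakdown gave 0.09 (SE 0.18) for Hal, the histidase, and -0.09 (SE 0.13) for Uroc1, the urocanase after it.

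None of the 7 measured one-carbon and methionine members passed, with a median of 0.06. Mat1a, which makes S-adenosylmethionine in hepatocytes, differed by 0.06 (SE 0.13, interval -0.24 to 0.36), and Gnmt, the glycine methyltransferase that consumes it, by 0.14 (SE 0.16). Cth, the cystathionine gamma-lyase that yields cysteine, had the highest estimate, 0.30 (SE 0.16, limma p = 0.092, exact permutation p = 0.114), whereas Cbs, the step before it, was at -0.08 (SE 0.19). Without HFD+WBM replicate 2 the Cth difference was 0.40, and under quantile normalization 0.37, and in both it was called. Bhmt2, a methyltransferase for homocysteine, was at -0.16 (SE 0.18), Dmgdh at -0.06 (SE 0.14) and Sardh at 0.12 (SE 0.17), the last 2 being the mitochondrial dehydrogenases of dimethylglycine and sarcosine.

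In the branched chain and lysine route all 5 estimates were above 0, with a median of 0.14, and Ivd was the 1 called. Bcat2, the mitochondrial branched chain aminotransferase, which hepatocytes hardly express, differed by 0.14 (SE 0.21). The alpha and beta subunits of the branched chain ketoacid dehydrogenase, Bckdha and Bckdhb, differed by 0.03 (SE 0.15) and 0.08 (SE 0.14). Aass, the first enzyme of lysine breakdown, differed by 0.26 (SE 0.17, limma p = 0.162, exact permutation p = 0.143), with values of 11.33 to 11.92 under HFD and 11.75 to 12.08 under HFD+WBM.

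All 4 amino acid carriers among the members also had estimates above 0, with a median of 0.32. Beside Slc38a2, Slc7a2, the cationic amino acid carrier CAT2 that takes up arginine and ornithine, was at 11.32, 12.26, 11.95 and 12.16 with HFD and at 12.29, 12.19, 12.67 and 12.47 with HFD+WBM. The difference of 0.48 (SE 0.22, interval -0.02 to 0.98) did not pass (limma p = 0.059, adjusted p = 0.43, exact permutation p = 0.057), and 4 of the 16 alternatives called it. On leaving out 1 mouse the difference was lowest, 0.28, without HFD replicate 1 and highest, 0.59, when HFD replicate 2 was dropped. Slc38a3 (SNAT3), the glutamine carrier, differed by 0.15 (SE 0.18) and Slc38a4, a neutral and cationic amino acid carrier, by 0.17 (SE 0.15). HFD replicate 1 was the lowest control in Slc7a2, Slc38a3 and Slc38a4, and HFD replicate 3 in Slc38a2.

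Sorted by position in the lobule, the members gave no common direction. Of 10 listed periportal members, 7 were measured (Cps1, Otc, Asl, Arg1, Hal, Uroc1 and Tat), none was called, and the median was -0.02. The pericentral members Glul and Oat had opposite signs. Of 6 other periportal landmarks, Cdh1 (E-cadherin) was lower with WBM without overlap, at 7.81 to 8.37 with HFD and 6.45 to 6.87 with HFD+WBM. The difference was -1.42 (SE 0.18, limma p = 2.0e-05, adjusted p = 0.199, exact permutation p = 0.029). That adjusted p was the smallest over all genes. The landmarks were listed with earlier results of these data known, so Cdh1 is no independent reading of a zone. Of 13 other pericentral landmarks, Cyp1a2, a cytochrome P450 of xenobiotic metabolism, was higher by 0.53 (SE 0.18, limma p = 0.015, exact permutation p = 0.057), and Rhbg, an ammonia channel found beside Glul, was lower (-0.74, SE 0.25, limma p = 0.016, exact permutation p = 0.086). The diets overlapped in both Cyp1a2 and Rhbg. All 3 calls, of Cdh1, Cyp1a2 and Rhbg, held in all 16 alternatives. The other landmarks of both zones did not pass. The median was 0.24 over the 13 pericentral landmarks, with 9 estimates above 0, and -0.14 over the 6 periportal ones, with 4 below 0. Averaged per mouse after subtracting each gene's mean, the diets overlapped in both lists. HFD replicate 1 was the highest mouse in the pericentral list, at 0.30, with HFD+WBM at -0.08 to 0.19. In the periportal list HFD+WBM replicate 2, at 0.11, was above HFD replicates 2 and 4 (0.01 and 0.04). Among all genes 4.85% were called higher and 6.9% lower.

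**Figure D4:**
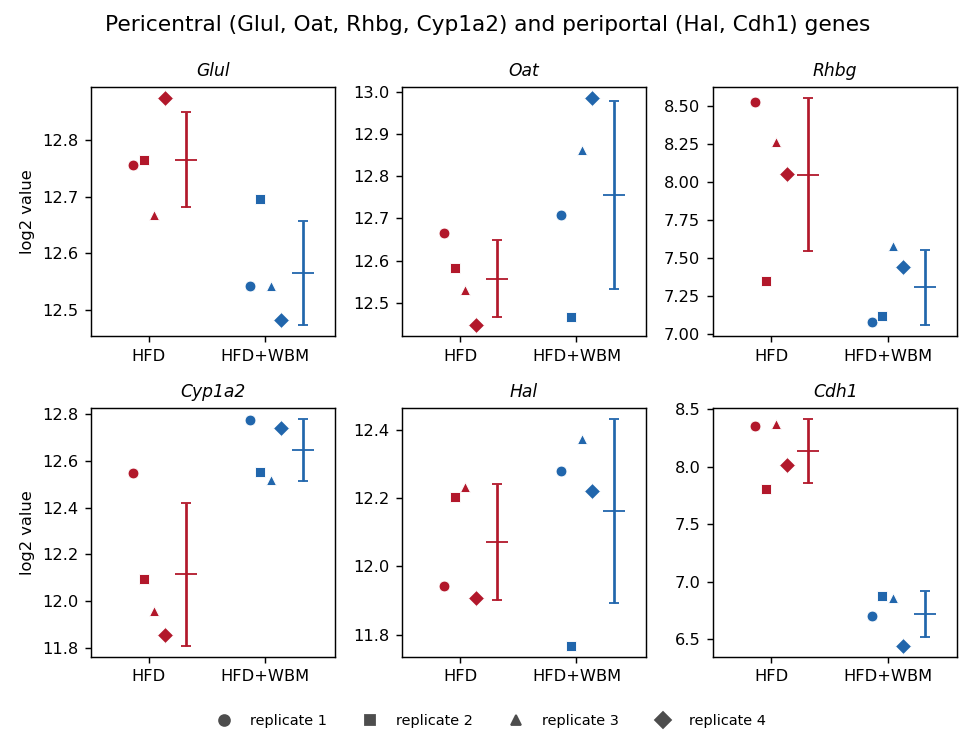
Log2 value (vertical axis, a separate scale in each panel) of the pericentral genes Glul, Oat, Rhbg and Cyp1a2 and the periportal genes Hal and Cdh1 in each of the 4 HFD (red) and 4 HFD+WBM (blue) mice, with marker shape for the replicate number and mean ± SD beside. Cdh1 separates the diets, while Glul, Oat, Rhbg, Cyp1a2 and Hal overlap. On average Rhbg is lower and Cyp1a2 higher with WBM.

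Across the members, 1 mouse of each diet was repeatedly the low one. HFD replicate 1 was the lowest of the 4 controls in 26 of the 43 members (60.5%), against 23.6% of all genes. HFD+WBM replicate 2 was the lowest of the 4 mushroom-fed mice in 31 of the 43 (72.1%), against 20.6% of all genes. Averaged over the 43 members after subtracting each gene's mean, these 2 mice were both at -0.20, while the other 3 controls lay between -0.03 and 0.13 and the other 3 mushroom-fed mice between 0.05 and 0.10. The diet means of this average were -0.01 and 0.01. The SD within each diet was 0.141, larger than the difference between the diets. The mice share their array with all members, and a member is no replicate of a diet.

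The 2 low mice were not low in every route. In the urea cycle HFD replicate 1 was at -0.20 and HFD+WBM replicate 2 at -0.24, while HFD replicate 2 was at 0.26. In glycine and serine breakdown HFD replicate 1 was at 0.07, near the other controls (0.08 to 0.16), and HFD+WBM replicate 2 alone was far down, at -0.40, with the other mushroom-fed mice between -0.02 and 0.02. In the carriers HFD replicate 1 was the lowest, at -0.51, while HFD replicate 2 was at 0.12, above HFD+WBM replicate 2. The 4 mushroom-fed mice lay between 0.06 and 0.24. Their SD was 0.080, against 0.262 in the controls.

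**Figure D5:**
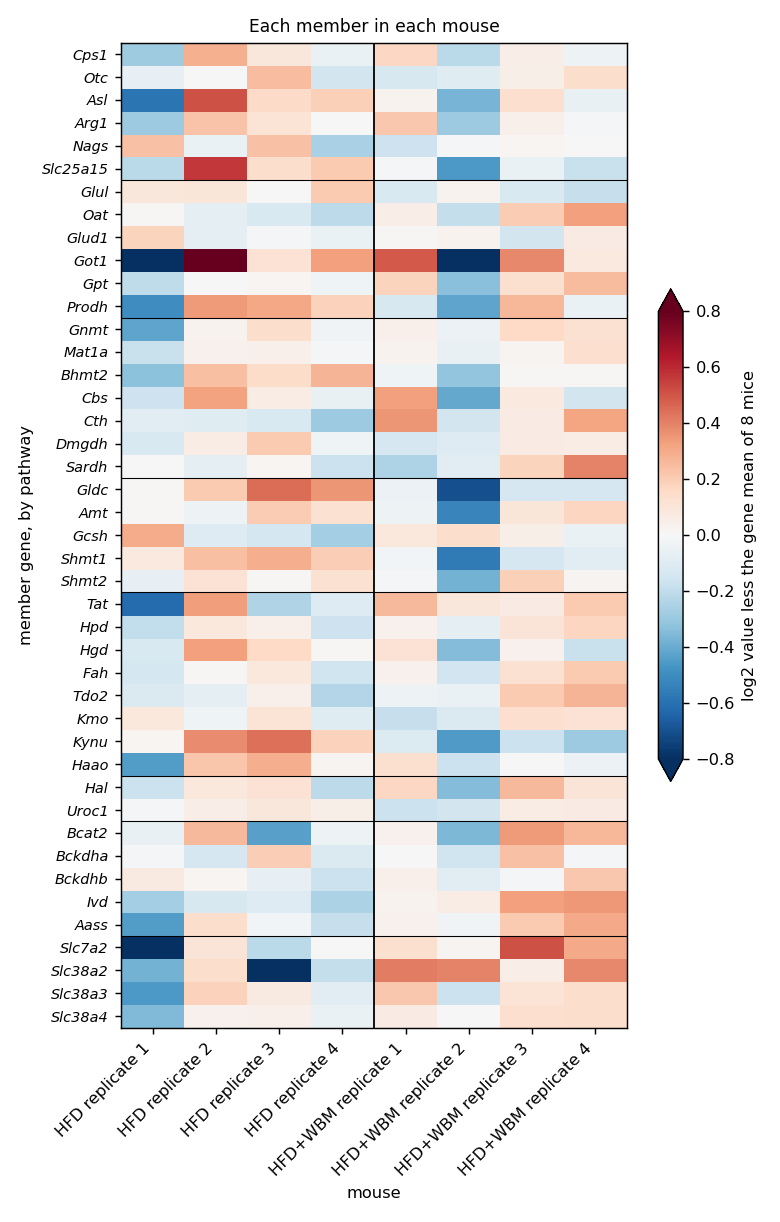
Each of the 43 members (vertical, grouped by pathway) in each of the 8 mice (horizontal), coloured by the log2 value less that gene's mean over the 8 mice, red above and blue below the mean, with the colour scale ending at 0.8 in either direction. HFD replicate 1 and HFD+WBM replicate 2 are blue over most members.

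Other genes of the same pathways were counted from lists that hold the remaining enzymes and carriers. For each count, the share of all genes called was 4.85% higher and 6.9% lower. In the serine route 2 called synthetic enzymes had the opposite sign to Gldc and Shmt1. Psat1, also of serine synthesis, was not among those called. Synthesis was not tested against breakdown. Phgdh, which commits glucose carbon to serine, was at 4.50 to 4.91 with HFD and 5.14 to 5.51 with HFD+WBM (0.67, SE 0.16, limma p = 0.0017, exact permutation p = 0.029), and Psph, the last step of serine synthesis, was higher by 0.47 (SE 0.17, limma p = 0.020, exact permutation p = 0.057). They were the 2 called of 10 measured in that list, with none lower, and Psph lost its call when replicate 2 of HFD, or 2 or 4 of HFD+WBM, was left out (0.39 to 0.42). Phgdh gave a dim signal, in the 8.5th percentile of all genes, and was not called when the prior variance was set by signal level.

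In the list of other aromatic and histidine genes (13 measured) 1 was higher and 1 lower. Ddc, the aromatic amino acid decarboxylase, was at 8.21 to 8.52 with HFD and 6.76 to 7.88 with HFD+WBM (-0.92, SE 0.24, limma p = 0.0037, exact permutation p = 0.029), with no overlap and a call in all 16 alternatives. Kyat3, a kynurenine aminotransferase that competes with Kynu for its substrate, was higher by 0.51 (SE 0.22, limma p = 0.041, exact permutation p = 0.057), though called in 8 of the 16 alternatives. In the branched chain and lysine list 1 of 19 was called. Ppm1k, the phosphatase that activates the branched chain ketoacid dehydrogenase, was at 10.49 to 10.79 with HFD and 11.05 to 11.63 with HFD+WBM (0.62, SE 0.17, limma p = 0.0051, exact permutation p = 0.029), called in all 16 alternatives. Without overlap upward were 1 of these 19 genes and 1 of the 5 measured members of the route, Ivd, where 3.21% of all genes were.

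Of 14 other carriers 3 were lower and none higher. Slc1a4, a carrier of alanine, serine and cysteine, was at 6.77 to 6.93 with HFD and 6.01 to 6.21 with HFD+WBM (-0.68, SE 0.13, limma p = 4.7e-04, exact permutation p = 0.029). Slc3a1, a subunit of the cystine and dibasic amino acid carrier, was lower by -0.69 (SE 0.23, limma p = 0.015, exact permutation p = 0.029) and Slc6a13, a carrier of GABA and taurine, by -0.44 (SE 0.16, limma p = 0.023, exact permutation p = 0.057). Slc6a13 was called in 11 of the 16 alternatives, and 2 to 4 of these carriers were lower when each mouse was left out. The estimate was above 0 in 9 of the 14, with a median of 0.08. Slc25a38, a mitochondrial glycine carrier, was the 1 without overlap upward, where 3.21% of all genes were. It was named for that reason, after its values were seen. Slc25a38 was at 9.84 to 10.06 with HFD and 10.11 to 10.35 with HFD+WBM (0.23, SE 0.14, limma p = 0.119, exact permutation p = 0.029). Any gene without overlap has this exact p, so the choice of Slc25a38 fixed it, and limma did not call the gene. In the one-carbon list 1 of 20 was lower, Mtap, which salvages methylthioadenosine (-0.37, SE 0.16, limma p = 0.043, exact permutation p = 0.029, called in 7 of 16 alternatives), and in the urea cycle and glutamate list 1 of 14 was lower, the Rhbg described above.

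Of 11 measured regulators of amino acid breakdown, 3 were higher and none lower, where 4.85% of all genes were called higher and 6.9% lower. The median was 0.30 against 0.0065 over all genes, with estimates from -0.08 to 0.47. Foxo1, a factor of the fasting response held in check by insulin, was at 10.12 to 10.46 with HFD and 10.58 to 10.87 with HFD+WBM (0.41, SE 0.15, limma p = 0.024, exact permutation p = 0.029). Crtc2, a coactivator of the response to glucagon, was higher by 0.38 (SE 0.15, limma p = 0.031, exact permutation p = 0.057), and Klf15, a factor of amino acid catabolism, by 0.38 (SE 0.17, limma p = 0.048, exact permutation p = 0.086). The calls were kept in 13, 9 and 7 of the 16 alternatives respectively. Without HFD replicate 1, or without HFD+WBM replicate 4, 0 regulators were called, and 1 was called when replicate 3 of HFD, or 2 or 3 of HFD+WBM, was left out. Among 11 genes of ATF4 and the response to amino acid shortage, 2 were higher and none lower, beside the same shares of all genes. The estimates ran from -0.60 to 0.84, with 9 above 0 and 2 below. Their median was 0.33, and 0.13 without HFD+WBM replicate 4. Vldlr, the very low density lipoprotein receptor, was at 8.19 to 8.73 with HFD and 9.15 to 9.52 with HFD+WBM (0.84, SE 0.16, limma p = 5.1e-04, exact permutation p = 0.029), and Sesn2, a leucine sensor upstream of mTORC1, was higher by 0.70 (SE 0.26, limma p = 0.024, exact permutation p = 0.029). Sesn2 was called in 13 of the 16 alternatives, not in the t-test or without HFD+WBM replicate 1 (0.65) or 2 (0.62), and its difference was 0.45 without HFD replicate 1, the lowest control. Without HFD replicate 2 or HFD+WBM replicate 4, 1 gene of this list was lower, and without HFD+WBM replicate 1 or 2 only 1 was higher. With an offset of 16 before the log, or a prior variance set by signal level, 1 gene was also lower. Most of the list was dim, with 2 of the 11 genes among the 50% brightest. Apart from Cdh1, the adjusted p of every gene named from these further lists was at least 0.348.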

How the data were processed

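Total RNA from the livers of 4 HFD and 4 HFD+WBM OVX mice was hybridized to Affymetrix Mouse Gene 1.0 ST arrays. Background correction, normalization and summary to transcript level were done by the authors with IterPLIER of Affymetrix Power Tools 1.8.6, and the file they deposited holds log2 values for 28944 probe sets. No source used here gives an offset before the log, so low values have no background limit. Diet and replicate number were taken from the sample labels, which name separate liver specimens.

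Probe sets that name 1 gene (21789) were reduced to the brightest probe set of each gene, which left 19938 genes, whereas 1621 probe sets that name several genes and 5534 without a name were not used. All genes entered 1 two-sided fit of diet in limma 3.58.1 (lmFit and eBayes, R 4.3.3), with Benjamini-Hochberg adjustment over the 19938 genes. "Called", "higher" and "lower" mean p under 0.05 before adjustment, the study's p cutoff. Exact permutation tests used all 70 divisions of the 8 mice, two-sided. The script was tested on simulated data. The number of arrays limits the precision.

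The members and all gene lists were chosen with earlier results of these data known. By the rule for named genes, all 48 members are named, those called or without overlap and Cps1, Otc, Asl, Arg1, Glul, Oat and Tat are given with their 8 values, the other members by their difference, and up to 4 called genes of each further list. The additional values of Got1, Slc25a15, Slc7a2, Amt and Aass were chosen after they were seen. Alternatives were quantile normalization, arrays centred on their medians, an offset of 16 before the log, the 50% brightest genes, averaging the probe sets of a gene, a prior variance set by signal level, array weights, an equal-variance t-test, the replicate number as a block, and leaving out each mouse. The 50% brightest genes entered counts only, so that a single gene has 16 alternatives. Among the members only Glul had a second probe set, so averaging probe sets left the values of the others unchanged. Promoter windows and names came from RefSeq tables of GRCm38.p6, where 36 of the 48 members had a window. The first listed window of each member was used for the member shares, and every listed window for the shares of all windows.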

Additional observations from a re-analysis of the deposited data

Results flagged for a closer look

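Among 86 groups of 4 mice (43 members, 2 diets), 4 held a mouse whose distance from the nearest of the others exceeded Dixon's critical share of the range, where chance gives about 1 in 20 groups. Nags in HFD+WBM replicate 1 was at 9.85, with the others at 10.01 to 10.03. Gldc in HFD+WBM replicate 2 was at 9.44, with the others at 10.00 to 10.09. Bhmt2 in HFD+WBM replicate 2 was at 11.38, with the others at 11.66 to 11.70. Slc38a2 in HFD+WBM replicate 3 was at 11.56, with the others at 11.90 to 11.92. All 4 are low values in mushroom-fed mice, 2 of them in replicate 2.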

How the results depend on the processing

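Of the 5 called members, Kynu and Slc38a2 were called in all 16 alternatives, Gldc in 13, and Shmt1 and Ivd in fewer, as given beside their values. No called member changed sign. Of the 38 members not called, 33 were called in no alternative, 5 (Slc25a15, Glul, Tat, Cth and Slc7a2) in at least 1, and the estimates of 13 changed sign in at least 1. The number of members higher with WBM, 2 in the reported test, was 4 under quantile normalization and 5 with a prior variance set by signal level, and 1 to 4 when each mouse was left out. The number lower, 3 in the reported test, was 1 to 4 when each mouse was left out. Members past an adjusted p of 0.05 were 2 (Kynu and Slc38a2) with the prior variance set by signal level and 0 in the reported test. Members without overlap were 4, and 4 to 10 when each mouse was left out, where fewer values have to separate. The causes of the other changes were not tested.

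The labels number the mice 1 to 4 in both diets, with nothing that ties a number to a shared cage or day. Same-numbered mice correlated at -0.12 to -0.02 in their deviations from the diet means, other pairs at -0.20 to 0.19, and 0 mice correlated best with their own number. With the replicate block 1 member was higher (Slc38a2) and 2 were lower (Kynu and Gldc).

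With 4 mice a diet the standard error of a member's difference was 0.132 to 0.484.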
